A study of Mus musculus with 9 samples.

Results

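Autophagy carries worn-out organelles and protein aggregates to the lysosome inside a double membrane, the autophagosome. The kinase ULK1 starts the process, and a lipid kinase complex built on Beclin 1, encoded by Becn1, marks the membrane on which it grows. ATG7 then drives 2 conjugation reactions: it helps to join ATG12 to ATG5, and that pair in turn helps to attach LC3 and GABARAP proteins, the mammalian ATG8 family, to the membrane. The receptor p62, encoded by Sqstm1, binds ubiquitin-marked cargo and LC3, and is itself broken down with the cargo. Proximal tubular cells hold many mitochondria and depend on this route for their upkeep. Much of autophagy is set by modification and turnover of these proteins, which RNA levels do not show.

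Described here are the mRNA levels of 10 core genes of this pathway, namely Ulk1, Becn1, Atg7, Atg5, Atg12, Sqstm1, Map1lc3a, Map1lc3b, Gabarap and Gabarapl1. They were chosen by name, and all 10 were found among the 24421 genes of the deposited table and among the 15583 genes tested. RNA came from tdTomato-positive cells sorted from the kidneys of 9 mice, 3 in each group, and each library was from a separate mouse on a C57BL/6 background. db/m mice are heterozygous for the Lepr db allele of the leptin receptor and served as non-diabetic controls, whereas db/db mice are homozygous and develop obesity and type 2 diabetes. The db/db group received vehicle, and the db/db-dapa group received dapagliflozin, an inhibitor of the glucose transporter SGLT2, at 1.5 mg/kg/day in the drinking water for 8 weeks. All 3 groups carried the SLC34a1GCE allele, which expresses a tamoxifen-inducible Cre from the locus of a proximal tubule phosphate transporter, together with the R26tdTomato reporter. All had been given 5 tamoxifen injections from 8 weeks of age, so the sorted cells are those that expressed Slc34a1 at that time and their descendants.

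Library totals were 4817670 to 6571539 counts for db/m mice, 2733314 to 7635630 for db/db mice and 6981183 to 9033062 for db/db-dapa mice. Levels are given in CPM, which are counts relative to the library size after TMM scaling, and 3 counts corresponded to 0.339 to 1.02 CPM. The 10 proximal tubule markers summed to 13028 to 20365 CPM per mouse, and none of them was at 0 in any mouse. The latter also held for every other list of cell markers but that of fibroblasts and pericytes. With no library of unsorted kidney, these sums cannot show what the sort achieved. Markers of other cells were lower, with 784 to 2495 CPM for 6 markers of the thick ascending limb and distal tubule, 155 to 787 for 6 of the collecting duct and 98.5 to 482 for 7 of macrophages and leukocytes. The 6 endothelial markers summed to 38.1 to 162 CPM and the 6 of fibroblasts and pericytes to 2.83 to 23.1, and 3 of the latter were at 0 in some mouse. The highest sums for the thick ascending limb and distal tubule and for the collecting duct were both in db/m replicate 3. They were at most 1722 and 500 CPM in the other mice. The 5 podocyte markers reached 255 CPM in db/db-dapa replicate 1 and at most 80.9 in the other mice, and the 5 erythroid markers reached 1462 CPM in db/db replicate 2 against at most 421 elsewhere. The part of these other cells in the results was not tested. In bulk libraries, fewer cells of a type and less RNA per cell cannot be told apart.

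None of the 10 genes passed the thresholds in any of the 3 comparisons. The comparisons are called the diabetes comparison (db/db against db/m), the dapagliflozin comparison (db/db-dapa against db/db) and the combined comparison (db/db-dapa against db/m), and values for all 3 are given in this order. A call needed a Benjamini-Hochberg adjusted p under 0.1 over all 15583 genes, from the quasi-likelihood test of edgeR, and a log2 fold change over 1 in either direction. In the diabetes comparison 1.24% of all genes were called (0.545% higher and 0.699% lower), in the dapagliflozin comparison 0%, and in the combined comparison 1.05% (0.578% higher and 0.475% lower). The dapagliflozin comparison had 0 calls in edgeR and limma over all genes, 808 genes at an unadjusted p under 0.05, 13 calls in DESeq2, and 272 in edgeR without db/db replicate 3. In the diabetes comparison 85 called genes were higher and 109 lower, and with library totals as the only scaling these were 141 and 93. At an adjusted p under 0.1 alone the counts of autophagy genes were also 0, against 1.67%, 0% and 1.31% of all genes. Unadjusted, p was under 0.05 for 3, 1 and 1 of the 10 genes, and for 13.7%, 5.19% and 18.2% of all genes. A joint test over the 3 groups called 0 of the 10, against 1.3% of all genes, with 1 gene, Ulk1, at an unadjusted p under 0.05 (14.1% of all genes). DESeq2 and limma also called 0 of the 10 in each pairwise comparison. The comparisons share mice, so their results are not independent of each other.

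The genes were well counted, and the data bounded their differences more closely than those of most genes. Their counts ran from 79 for Atg5 in the smallest library to 7004 for Sqstm1 in the largest. The 95% interval of the log2 fold change lay within 1 in either direction, that is within a doubling or halving, for 9 of the 10 genes in the diabetes comparison (47.8% of all genes). It did so for 10 of 10 in the dapagliflozin comparison (54% of all genes) and for 9 of 10 in the combined comparison (44.2%). Map1lc3a was the exception in the diabetes and combined comparisons. These shares follow in part from the level of a gene, since low counts give wide intervals.

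**Figure D1:**
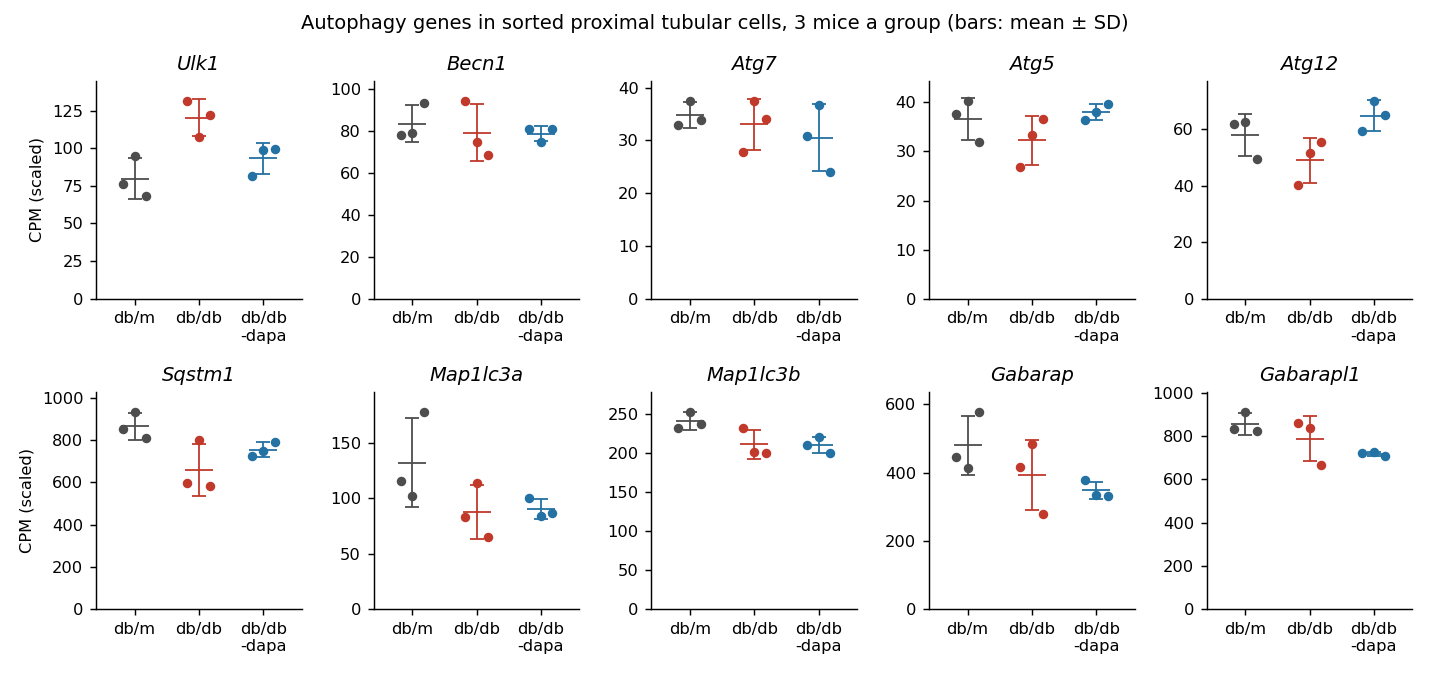
Level of each of the 10 autophagy genes (CPM after scaling, linear axes from 0) in every mouse of the 3 groups, with points for mice and bars for the mean ± SD (n = 3). Ulk1 was highest in the 3 db/db mice, Sqstm1 was highest in the 3 db/m mice, and in the diabetes comparison the other 8 genes overlapped.

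Ulk1 had the smallest p of the 10 genes in the joint test (0.0188, edgeR, unadjusted). It encodes the kinase that starts autophagy when nutrients are scarce and that is held in check by mTOR. It lies on chromosome 5 of GRCm38 from 110784488 to 110810097 on the minus strand. Its level was 76.4, 94.7 and 68.4 CPM in the db/m mice, 132, 108 and 122 CPM in the db/db mice and 81.5, 98.7 and 99.4 CPM in the db/db-dapa mice. All 3 db/db mice lay above all 6 others, whereas the db/m and db/db-dapa mice overlapped. The log2 fold change in the diabetes comparison was 0.59 (standard error 0.18, 95% interval 0.20 to 0.98), with an unadjusted p of 0.00649 and an adjusted p of 0.178 from edgeR. In the dapagliflozin comparison it was -0.37 (standard error 0.18, 95% interval -0.76 to 0.02), with an adjusted p of 0.854 from edgeR. In the combined comparison it was 0.22 (95% interval -0.16 to 0.61), and ranged from 0.12 to 0.36 when 1 mouse was left out. Exact two-sided permutation tests gave p = 0.1 for each of the first 2 of these differences, the smallest that 3 against 3 mice allow, and 0.2 for the third. Groups without overlap always give that smallest value, so it adds nothing to the separation.

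How far the Ulk1 difference passed a threshold depended on the tool. With DESeq2 the adjusted p in the diabetes comparison was 0.0443, with a log2 fold change of 0.58 that stayed under the fold threshold. DESeq2 called 363 of all genes past both thresholds there, against 194 in edgeR. Its share of all genes at an adjusted p under 0.1 alone is not given here, so Ulk1 cannot be set against it. In DESeq2's joint test over the 3 groups Ulk1 was called (adjusted p = 0.0933), against 0.287 with edgeR. That DESeq2 test called 953 of all genes, and the edgeR test called 203. Across the other alternatives that kept all mice, its adjusted p in the diabetes comparison was between 0.119 and 0.271. With only the mice of these 2 groups in the edgeR fit it was 0.368. When 1 mouse was left out at a time, the log2 fold change ranged from 0.48 to 0.73.

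Sqstm1 had its lowest mean in db/db mice. It lies on chromosome 11 from 50199366 to 50210827 on the minus strand. The level was 853, 934 and 807 CPM in the db/m mice, 595, 799 and 582 CPM in the db/db mice and 722, 749 and 792 CPM in the db/db-dapa mice. All db/m mice lay above all other mice, though db/db replicate 2, at 799 CPM, was within 10 CPM of the lowest db/m mouse. The log2 fold change in the diabetes comparison was -0.39 (standard error 0.18, 95% interval -0.78 to -0.01), with an adjusted p of 0.353 from edgeR. Without db/db replicate 2 it was -0.56, and without db/db replicate 3 it was -0.32. The db/db-dapa mice lay within the range of the db/db mice, with a log2 fold change of 0.20 (95% interval -0.19 to 0.58) that lay between 0.13 with db/db replicate 1 left out and 0.36 with db/db replicate 2 left out. Against db/m mice the value in db/db-dapa mice was -0.20 (95% interval -0.58 to 0.19).

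The promoters of Ulk1 and Sqstm1 are shown because these were the 2 genes whose db/db and db/m mice did not overlap, 1 in each direction. Of all genes, 16.4% were without overlap in that comparison, 8.28% higher and 8.13% lower. The sequences are from RefSeq promoters of GRCm38.p6, cut to the bases upstream of every annotated start of the gene and free of annotated exons of other genes. Both are written 5′ to 3′ on the strand of the gene. Capitals mark GGGCGG, the GC box bound by Sp1-type factors, or its reverse complement CCGCCC.
Ulk1, chr5:110810098-110810331, minus strand: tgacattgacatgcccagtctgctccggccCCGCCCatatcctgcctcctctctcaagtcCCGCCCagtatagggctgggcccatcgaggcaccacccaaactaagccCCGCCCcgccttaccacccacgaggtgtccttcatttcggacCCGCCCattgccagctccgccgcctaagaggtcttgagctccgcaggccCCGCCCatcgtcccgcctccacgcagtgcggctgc
Sqstm1, chr11:50210828-50210889, minus strand: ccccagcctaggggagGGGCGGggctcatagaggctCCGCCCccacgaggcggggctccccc

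The Ulk1 stretch of 234 bases held 5 such matches and 66.2% G and C, and the Sqstm1 stretch of 62 bases held 2 and 79% G and C. RefSeq promoters, 250 bases before and 50 after the start, were given for 7 of the 10 genes, and 5 of these 7 held GGGCGG on either strand, against 35.7% of 32851 promoters of the same length. The E-box CACGTG, the core of sites bound by TFEB and related factors that switch on autophagy and lysosome genes, was found in the promoters of Atg7 and Atg5 and in 7.15% of all. TGACNNNGC, the core of the antioxidant element bound by NRF2, was found in that of Map1lc3b and in 12.4% of all. TGTTTAC, a forkhead motif, and TGATGNAAT, an ATF4-type motif, were in none of the 7 and in 3.65% and 0.965% of all. TATAAA was found only for Sqstm1 among the 7, and in 13.6% of all. These are matches of letters on both strands of a short window and say nothing of binding.

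Becn1 had the largest p of the 10 genes in the joint test (0.855, edgeR, unadjusted). It encodes Beclin 1, the scaffold of the phosphatidylinositol 3-kinase complex, and lies on chromosome 11 from 101285952 to 101302286. Its level was 78.1, 78.7 and 93.3 CPM in db/m, 94.1, 74.4 and 68.6 CPM in db/db and 80.6, 74.4 and 80.7 CPM in db/db-dapa mice. The 3 groups overlapped throughout. Log2 fold changes were -0.08 (95% interval -0.45 to 0.29) in the diabetes comparison, -0.00 (95% interval -0.38 to 0.37) in the dapagliflozin comparison and -0.08 (95% interval -0.45 to 0.29) in the combined comparison. When 1 mouse was left out, they ranged from -0.22 to 0.01, from -0.08 to 0.14 and from -0.13 to -0.00.

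The 3 genes of the ATG12-ATG5 conjugation were among the lowest of the 10. Atg7, on chromosome 6 from 114643097 to 114860614, encodes the activating enzyme of both conjugation reactions. Its level was 32.9, 37.5 and 34.0 CPM in db/m, 27.9, 37.4 and 34.0 CPM in db/db and 30.8, 36.8 and 24 CPM in db/db-dapa mice. The groups overlapped in all comparisons, with log2 fold changes of -0.07, -0.12 and -0.19 in the order used above. Atg5, on chromosome 10 from 44268358 to 44364291, encodes the acceptor to which ATG12 is joined. It was at 37.6, 40.3 and 32.0 CPM in db/m, 26.9, 33.4 and 36.6 CPM in db/db and 36.5, 37.9 and 39.6 CPM in db/db-dapa mice. The lowest value was that of db/db replicate 1, and the log2 fold changes were -0.17, 0.23 and 0.05. Without db/db replicate 1 the first 2 were -0.07 and 0.12, and without db/db replicate 3 they were -0.28 and 0.34. For Atg7 the combined value lay between -0.34 with db/db-dapa replicate 2 left out and -0.03 with db/db-dapa replicate 3 left out.

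Atg12 encodes the ubiquitin-like protein joined to ATG5 and lies on chromosome 18 from 46730144 to 46741580. It was at 61.7, 62.5 and 49.3 CPM in db/m, 40.1, 51.4 and 55.4 CPM in db/db and 59.2, 70.0 and 65.0 CPM in db/db-dapa mice. All 3 db/db-dapa mice lay above all 3 db/db mice, and no other autophagy gene of the 10 did so (10.2% of all genes were without overlap in this comparison, and 4.9% were without overlap and higher). The log2 fold change was 0.40 (standard error 0.18, 95% interval 0.01 to 0.78), with an unadjusted p of 0.0464 and an adjusted p of 0.854 from edgeR. Ulk1 was the 1 gene of the 10 with all db/db-dapa mice below all db/db mice, against 5.29% of all genes. In the diabetes comparison the log2 fold change of Atg12 was -0.23, and in the combined comparison it was 0.16, both with overlap. When 1 mouse was left out, the diabetes value lay between -0.34 with db/m replicate 3 left out and -0.11 with db/db replicate 1 left out, the combined value between 0.06 and 0.23, and the dapagliflozin value between 0.27 and 0.51. Atg12 and its partner Atg5 had their lowest mean in db/db mice, at 49.0 ± 7.95 and 32.3 ± 4.98 CPM (SD, n = 3), without passing the test.

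**Figure D2:**
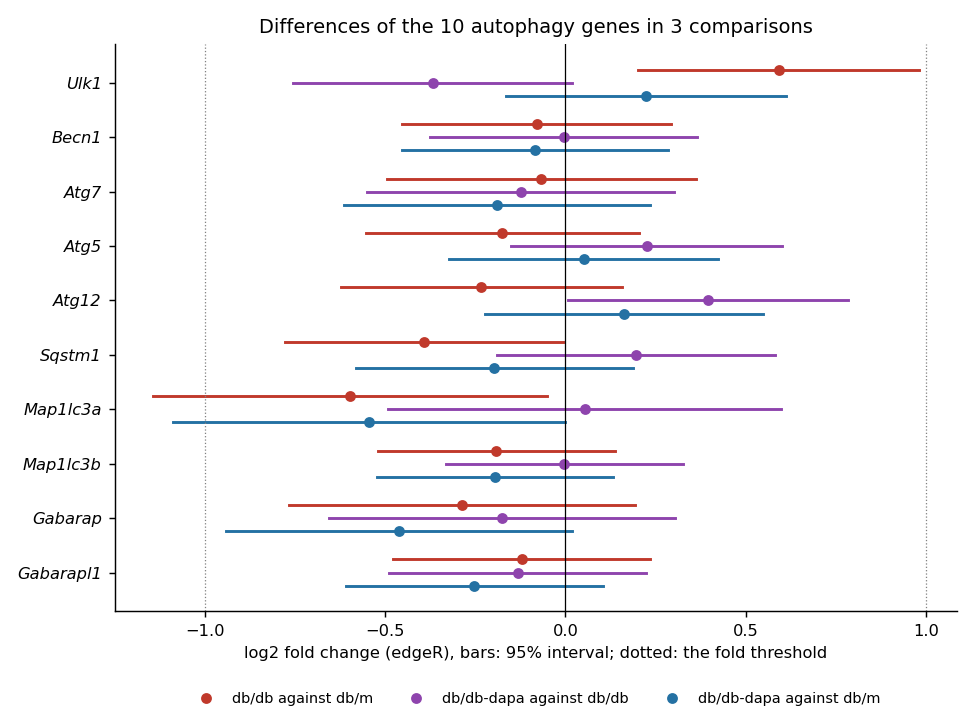
Log2 fold change of each autophagy gene in the 3 comparisons (points) with its 95% interval from edgeR (bars), dotted lines marking the fold threshold of 1 in either direction. Intervals of Ulk1, Sqstm1 and Map1lc3a in the diabetes comparison, of Atg12 in the dapagliflozin comparison and of Map1lc3a in the combined comparison leave out 0, and no adjusted p is under 0.1.

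The LC3 and GABARAP genes encode the proteins that coat the autophagosome and hold its cargo. Map1lc3a, on chromosome 2 from 155276297 to 155278073, measured 116, 103 and 178 CPM in db/m, 82.9, 114 and 65.6 CPM in db/db and 101, 84.0 and 87.1 CPM in db/db-dapa mice. db/m replicate 3 stood highest and db/db replicate 3 lowest. The log2 fold change was -0.60 (standard error 0.25, 95% interval -1.14 to -0.05) in the diabetes comparison, with an adjusted p of 0.318 from edgeR. When 1 mouse was left out at a time, it lay between -0.84 with db/db replicate 2 left out and -0.33 with db/m replicate 3 left out. In the combined comparison it was -0.54 (95% interval -1.09 to -0.00) with an adjusted p of 0.274, and lay between -0.70 with db/m replicate 2 left out and -0.28 with db/m replicate 3 left out. In the dapagliflozin comparison it was 0.05 (95% interval -0.49 to 0.60), and lay between -0.11 with db/db replicate 3 left out and 0.29 with db/db replicate 2 left out.

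Map1lc3b, the LC3 gene whose protein is used most as a marker of autophagosomes, varied least of the 10 within groups. It lies on chromosome 8 from 121590361 to 121598760. Its level was 231, 253 and 238 CPM in db/m, 232, 201 and 200 CPM in db/db and 210, 221 and 200 CPM in db/db-dapa mice. The standard deviation within groups was 0.0886 on the log2 scale, at percentile 1.01 of all genes tested. That rank follows in part from the level of the gene, since low counts vary more. Log2 fold changes were -0.19 (95% interval -0.52 to 0.14), -0.00 (95% interval -0.33 to 0.33) and -0.19 (95% interval -0.52 to 0.13).

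Gabarap and Gabarapl1 encode members of the other branch of the family, which acts late in the closing and fusion of autophagosomes. Gabarap, on chromosome 11 from 69991143 to 69994951, measured 446, 413 and 578 CPM in db/m, 415, 483 and 280 CPM in db/db and 377, 334 and 332 CPM in db/db-dapa mice. The lowest mouse, db/db replicate 3, lay below all db/db-dapa mice, and the other 2 db/db mice lay above them. Gabarapl1, on chromosome 6 from 129533160 to 129542346, measured 832, 913 and 824 CPM in db/m, 859, 836 and 668 CPM in db/db and 722, 726 and 707 CPM in db/db-dapa mice. The 3 db/db-dapa values were within 20 CPM of each other. For Gabarap the log2 fold changes were -0.29, -0.17 and -0.46 (95% interval -0.94 to 0.02 for the last, adjusted p = 0.287 from edgeR), and for Gabarapl1 they were -0.12, -0.13 and -0.25 (95% interval -0.61 to 0.10 for the last). The diabetes and dapagliflozin values of both genes depended on single db/db mice. For Gabarap the diabetes value lay between -0.46 with db/db replicate 2 left out and -0.10 with db/db replicate 3 left out, and the dapagliflozin value was then 0.00 and -0.36. For Gabarapl1 the diabetes value lay between -0.19 with db/db replicate 1 left out and -0.02 with db/db replicate 3 left out, and the dapagliflozin value was then -0.07 and -0.22.

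All 4 of these ATG8 genes, and Sqstm1, were lower in every db/db-dapa mouse than in every db/m mouse. These 5 of 10 compare with 13.7% of all genes that were lower without overlap, 14.4% that were higher and 28.1% without overlap in either direction, in this comparison. The largest of the 5 differences was that of Map1lc3a, and none had an adjusted p under 0.274 in edgeR. The exact two-sided permutation p was 0.1 for each of them. Any gene without overlap between 3 and 3 mice gives this value, so it adds nothing to the separation. The other 5 genes, Ulk1, Becn1, Atg7, Atg5 and Atg12, overlapped between these groups. In the dapagliflozin comparison none of the 5 was without overlap.

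Over the 10 genes the median log2 fold change was -0.18 in the diabetes comparison, with 9 of the 10 lower, and the median of all genes was 0.02. In the dapagliflozin comparison it was -0.00, with 6 lower, against -0.01 for all genes. In the combined comparison it was -0.19, with 7 lower, against -0.02 for all genes. With library totals as the only scaling, the median of all genes in the diabetes comparison was 0.13 and that of the 10 genes was -0.08. Becn1 and Atg7 were then at 0.03 in that comparison, so that 7 rather than 9 of the 10 were lower.

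**Figure D3:**
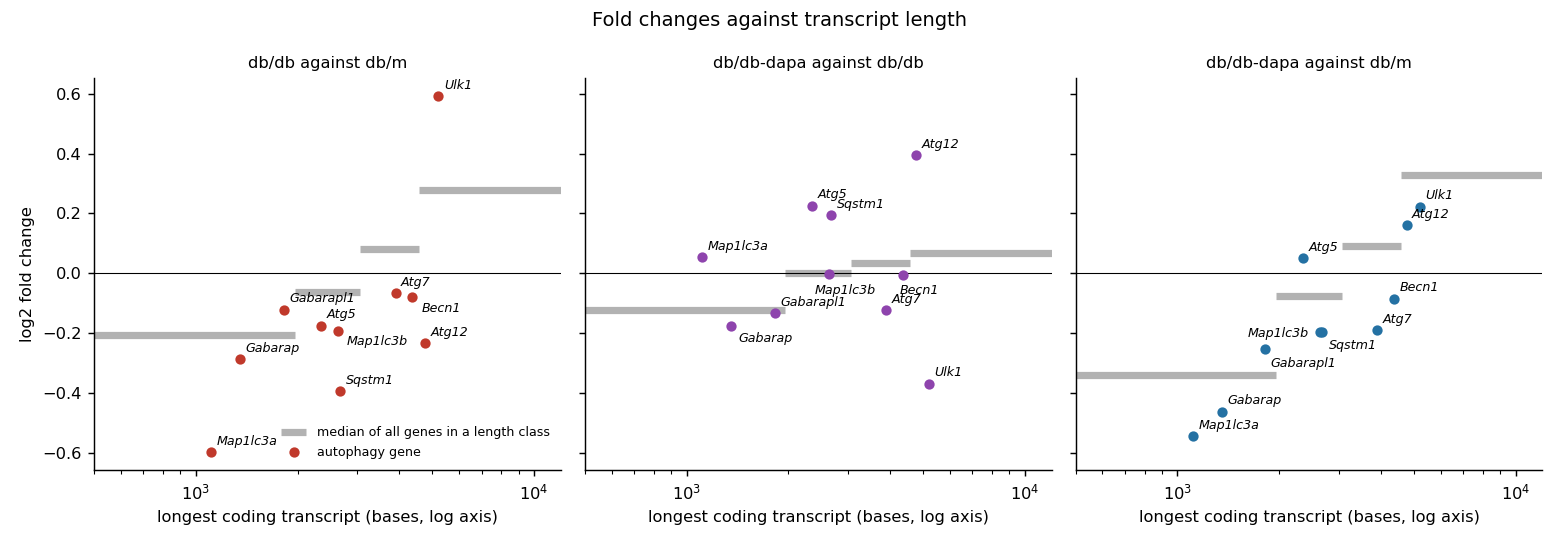
Log2 fold change of the 10 autophagy genes (points, linear axis) against the length of the longest coding transcript (bases, log axis) in the 3 comparisons, with grey bars for the median of all genes in each of 4 length classes of equal size. In both comparisons with db/m mice the grey bars climb from short to long transcripts, from -0.34 to 0.33 for db/db-dapa mice, and the short genes Map1lc3a, Gabarap and Gabarapl1 lie low.

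Fold changes of all genes moved with transcript length, and the autophagy genes sat at both ends of that range. Map1lc3a, Gabarap and Gabarapl1, with longest coding transcripts of 1112, 1351 and 1820 bases, belonged to the shortest of 4 length classes of equal size, and Ulk1 and Atg12, with 5213 and 4765 bases, to the longest. The median log2 fold change of the shortest class was -0.20 in the diabetes comparison, -0.12 in the dapagliflozin comparison and -0.34 in the combined comparison. The medians of the longest class were 0.28, 0.07 and 0.33. The pattern also separated mice of 1 group: relative to the mean of all mice, the shortest class lay at 0.29 in db/m replicate 3 and at -0.27 in db/db replicate 3, and the longest class at -0.27 and 0.28.

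A correction for transcript length within each mouse, chosen after this pattern was seen, left 14425 genes for testing and again called 0 of the 10. Ulk1 then had log2 fold changes of 0.45 in the diabetes comparison (adjusted p = 0.207), -0.43 in the dapagliflozin comparison (adjusted p = 0.745) and 0.01 in the combined comparison. In the combined comparison the values after correction were nearer 0 for Map1lc3a (-0.22), Gabarap (-0.21), Gabarapl1 (-0.11), Map1lc3b (-0.16) and Sqstm1 (-0.17). They were further from 0 for Atg7 (-0.29) and Becn1 (-0.23), which were then the lowest of the 10, and for Atg5 (0.11). In the diabetes comparison Map1lc3a was at -0.41, Sqstm1 at -0.37, Atg12 at -0.36, Becn1 at -0.18, Map1lc3b at -0.16, Gabarap at -0.14, Atg7 at -0.13, Atg5 at -0.12 and Gabarapl1 at -0.03. Atg12 turned to -0.02 in the combined comparison and stayed at 0.34 in the dapagliflozin comparison. The cause of the length pattern was not tested.

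**Figure D4:**
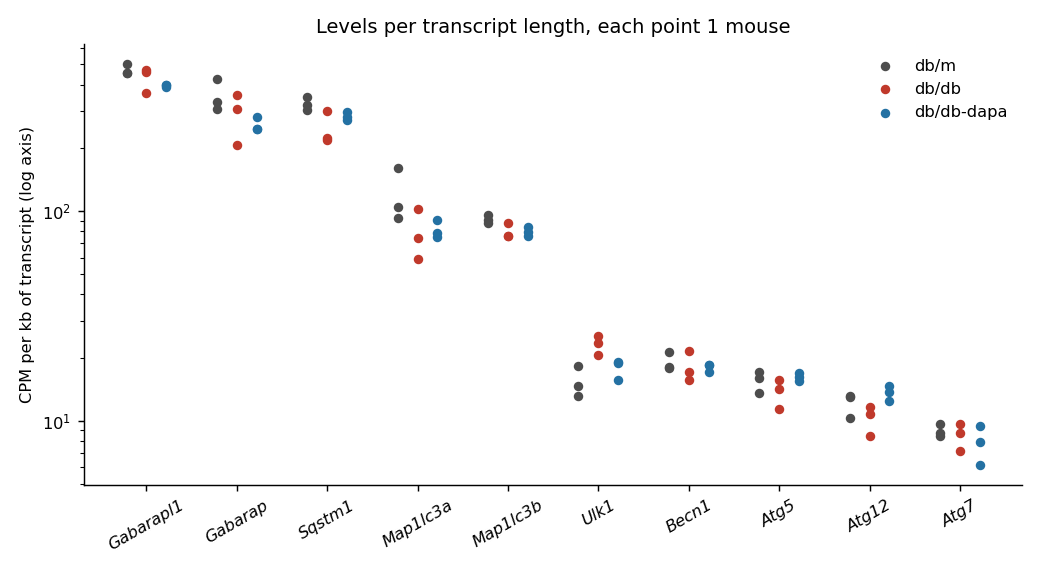
Level per transcript length of the 10 autophagy genes (CPM per kilobase, log axis) in each mouse, ordered by the mean over the 9 mice and coloured by group. Gabarapl1 is highest in every mouse, a gap separates Map1lc3b from Ulk1, and Atg7 is lowest in every mouse.

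Per transcript length, Sqstm1 and the 4 ATG8 genes stood far above Ulk1, Becn1, Atg5, Atg12 and Atg7. This order depends on 1 transcript length per gene, 1112 bases for Map1lc3a and 5213 for Ulk1. In CPM the mean of Map1lc3a was below that of Ulk1 in db/db (87.4 against 120) and db/db-dapa mice (90.6 against 93.2). In db/m mice it was above (132 against 79.8). The level in CPM per kilobase of the longest coding transcript, averaged over the 9 mice, was 433 for Gabarapl1, 301 for Gabarap, 284 for Sqstm1, 93.0 for Map1lc3a and 83.8 for Map1lc3b. It was 18.8 for Ulk1, 18.4 for Becn1, 15.2 for Atg5, 12 for Atg12 and 8.42 for Atg7. Gabarapl1 ranked first and Atg7 last in 9 of 9 mice. Neighbours in this order that changed places between mice were Gabarap and Sqstm1, Map1lc3a and Map1lc3b (each in the given order in 5 of 9 mice), and Ulk1 and Becn1 (6 of 9). The ranges over the mice were apart only between Sqstm1 and Map1lc3a and between Map1lc3b and Ulk1. In all 3 db/db mice Ulk1 was above Becn1, whereas in db/m mice it was above in 1 of 3.

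Within the ATG8 family, with Gabarapl2 added, Gabarapl1 and Gabarap took most of the per-kilobase level in every group. Gabarapl1 took 42.6 ± 4.98% (SD, n = 3) of it for db/m, 46.2 ± 2.71% for db/db and 45.2 ± 1.55% for db/db-dapa mice. Gabarap took 31.8 ± 3.28%, 30.5 ± 3.13% and 29.4 ± 1.01%. Map1lc3a took 10.6 ± 2.34%, 8.26 ± 1.17% and 9.31 ± 0.576%, and Map1lc3b took 8.28 ± 0.799%, 8.65 ± 1.44% and 9.15 ± 0.506%. Gabarapl2 held the remaining 6.69 ± 0.252%, 6.43 ± 0.123% and 6.92 ± 0.427%. The differences between group means were within the spread between mice for Gabarapl1 and Gabarap. For Map1lc3b the means of db/m and db/db-dapa mice differed by more than the SD of either group, though single mice overlapped. These shares depend on 1 transcript length per gene.

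The other 60 autophagy genes, taken by role, gave no call either, with 60 of 60 tested. In the diabetes comparison 34 were higher and 26 lower, with a median of 0.06, and 10 had an unadjusted p under 0.05. In the dapagliflozin comparison 39 were higher and 21 lower (median 0.07), and 2 had one. In the combined comparison 44 were higher and 16 lower (median 0.15), and 13 had one. Of all genes, 13.7%, 5.19% and 18.2% had one, and the medians were 0.02, -0.01 and -0.02. In the combined comparison the longest class of transcripts had a median of 0.33 and the shortest -0.34. The part of transcript length in the direction of the 60 genes was not tested. The smallest adjusted p of the 60 in edgeR was 0.243, 0.854 and 0.184. Groups did not overlap for 9, 3 and 19 of the 60, against 16.4%, 10.2% and 28.1% of all genes. DESeq2 and limma also called 0 of the 60 in each comparison. In DESeq2 2 genes, Wdr45 and Vamp8, had an adjusted p under 0.1 in the combined comparison, where their log2 fold changes in edgeR were -0.40 and -0.80. Of all genes, DESeq2 called 507 there past both thresholds, against 164 in edgeR. Its share of all genes at an adjusted p under 0.1 alone is not given here, so these 2 cannot be set against it.

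By role, the median log2 fold change in the diabetes comparison was 0.07 for the 4 other genes of the ULK1 complex, 0.13 for the 7 of the phosphatidylinositol 3-kinase complex and 0.01 for the 10 of membrane supply and lipid transfer. It was -0.14 for the 9 further conjugation genes, 0.37 for the 7 other cargo receptors, 0.15 for the 7 genes of fusion with lysosomes and 0.16 for the 16 regulators. The conjugation genes were the 1 group with more members lower than higher in both comparisons with db/m mice, with 5 of 9 and 6 of 9 lower. Ulk2, the paralog of Ulk1, was at 0.18 (adjusted p = 0.737 from edgeR) in the diabetes comparison, where Ulk1 was at 0.59.

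**Figure D5:**
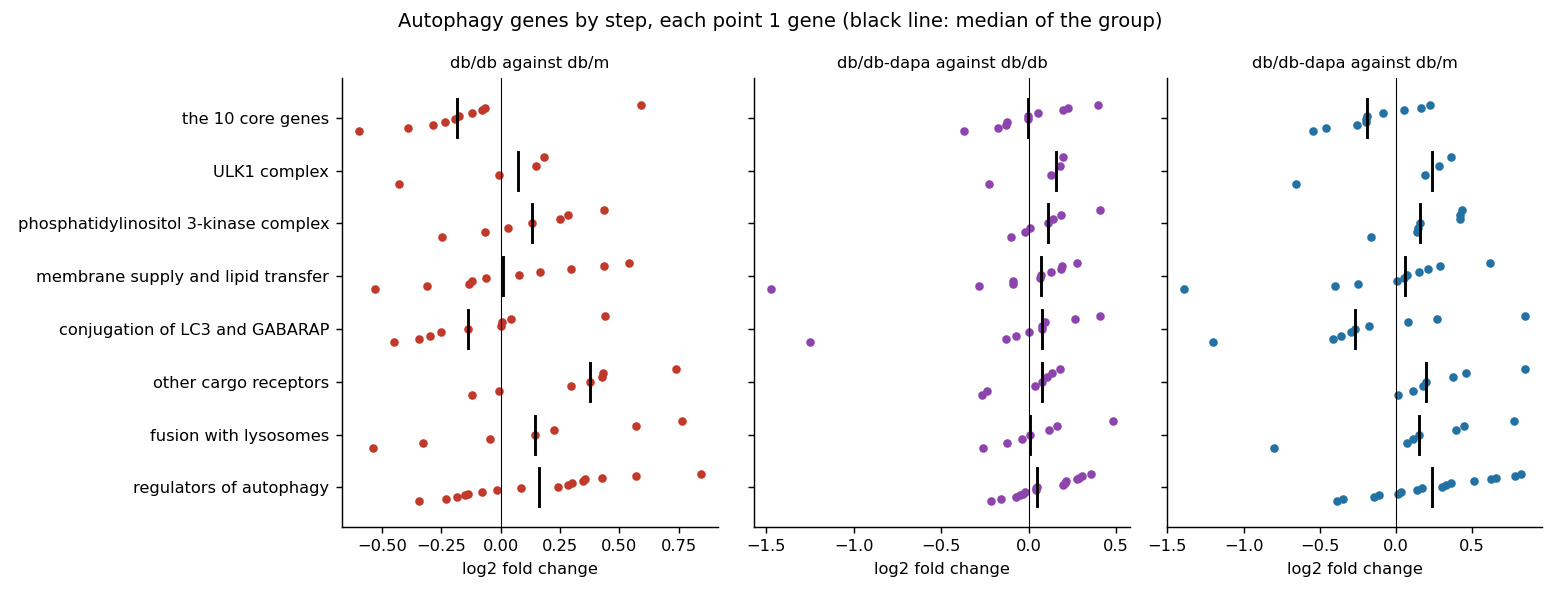
Log2 fold changes of the 10 core genes and of the 60 other autophagy genes by role in the 3 comparisons, each point a gene and each black line the median of its group. Medians of the 10 core genes lie at -0.18, -0.00 and -0.19, and those of the 7 other cargo receptors at 0.37, 0.08 and 0.20.

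The other genes at the ends of the range were these. Foxo3, a transcription factor that drives autophagy genes, was highest in the diabetes comparison, with 29.1, 31.6 and 9.77 CPM in db/m and 34.0, 37.6 and 54.9 CPM in db/db mice (log2 fold change 0.84, standard error 0.36, adjusted p = 0.324). Epg5, a tether for fusion with lysosomes, was next, at 0.76 (standard error 0.30, adjusted p = 0.289). For both, db/db replicate 3 was the highest of the db/db mice and db/m replicate 3 the lowest of the db/m mice, as with the length pattern above, and their longest coding transcripts have 6848 and 9660 bases. Vamp8, a SNARE protein of that fusion step with a transcript of 2076 bases, was lowest, at -0.54, and Tmem41b, a lipid scramblase, was at -0.53.

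In the dapagliflozin comparison Snap29, the SNARE partner of Vamp8, was highest at 0.48 and Atg4c, a protease that trims ATG8 proteins, was next at 0.41. Atg9b, a paralog of the membrane carrier Atg9a, was lowest at -1.47, on at most 1.05 CPM in any mouse. Atg16l2 followed at -1.25, with 10.5, 5.6 and 3.54 CPM in db/db and 4.12, 1.97 and 1.92 CPM in db/db-dapa mice, which overlapped. In the combined comparison Atg4c was highest at 0.85 and Wdfy3, a large adaptor for aggregates with a transcript of 14274 bases, was at 0.84. Both groups of mice were apart for these 2, with an adjusted p of 0.212 for each in edgeR. Atg9b was again lowest at -1.39, with Atg16l2 at -1.20.

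Heat shock and immediate-early genes, which respond to stress and to the handling of cells, were set beside these values. The 9 heat shock genes summed to 9757 to 12241 CPM in db/m, to 5159 to 6678 CPM in db/db and to 7540 to 12339 CPM in db/db-dapa mice. The db/db mice were thus lowest on this list, as they were highest for Ulk1 and lowest in the mean for Sqstm1. In the diabetes comparison 9 of 9 heat shock genes were lower, 3 of them with an adjusted p under 0.1 in edgeR and 1 past both thresholds. The 10 immediate-early genes summed to 3658 to 4301, 2587 to 7882 and 3382 to 5957 CPM and overlapped. The part of either in the levels of the autophagy genes was not tested.

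For 4 of the 10 genes the counts may hold reads of a gene on the opposite strand, since the sources used here do not state whether strand was used in counting. Exons of Becn1 shared 3104 of 7065 bases with Cntd1, those of Sqstm1 580 of 3356 with 3010026O09Rik, those of Gabarapl1 570 of 2013 with 1700101I11Rik and those of Map1lc3b 58 of 7517 with Zcchc14. The values that were not whole numbers among the 10 genes were found for these 4 alone, in 4, 2, 4 and 1 of 9 mice.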

How the data were processed

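Poly(A) RNA from sorted cells was made into stranded libraries and read as single ends of 101 bp. The authors' processing notes name TopHat2 2.0.13, Bowtie2 2.2.3, SAMtools 0.1.19 and Cufflinks 2.2.1 with mm10. The deposited table is named as FPKM but holds estimated counts: 85.9% of its values above 0 are whole numbers and column sums differ between mice. How the authors made these estimated counts is not given in the sources used here. They were rounded. The labels name the tissue as kidney, and the study's methods describe the sort. The table had 24421 rows, 6100 at 0 in all mice, with 0 rows without a name and 0 unused columns.

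Genes at 0.3 CPM or more in at least 2 of 9 mice (15583) were fitted over all 9 mice in edgeR 4.0.16 by quasi-likelihood (earlier form, TMM scaling, no block) in R 4.3.3. Intervals come from the F statistic and its degrees of freedom. limma 3.58.1 and DESeq2 1.42.0 were alternatives. Each tool was also run on simulated counts, and the outcome is not given here. The simulated counts held no transcript length pattern, so they do not bear on how the tools deal with it. Single levels were also compared as log2(CPM + 1) with exact permutation tests. Lengths and positions are from GENCODE M21 (GRCm38), where 23350 symbols matched directly, 650 as older symbols and 421 not. Length was known for 92.6% of tested genes. Replicates correlated at r = 0.955 to 0.992, with a common biological coefficient of variation of 0.259. Between mice of different groups r was 0.944 to 0.991, so replicates were not set apart by it. For db/db replicate 3, r was 0.955 and 0.964 with db/db replicates 1 and 2. With db/db-dapa replicates 1, 2 and 3 it was higher, at 0.975, 0.989 and 0.991.

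The 10 genes and all lists were chosen with earlier results of these data known. Of the 60 other autophagy genes, those with an adjusted p under 0.1 and the 2 highest and 2 lowest in each comparison were to be named. Ulk2, Gabarapl2, Wdr45 and the overlapping genes were added after values were seen.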

Additional observations from a re-analysis of the deposited data

How the results depend on the processing

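In none of the 12 other settings of the pairwise tests, and in none of the 9 fits that left out 1 mouse, was any of the 10 genes called in a pairwise comparison. The log2 fold change furthest from 0 in these fits was -0.84, for Map1lc3a, so the fold threshold of 1 excluded a call whatever the p. By adjusted p alone, Ulk1 was under 0.1 in DESeq2 in the diabetes comparison (0.0443), where the share of all genes under 0.1 is not given here. In the joint test over the 3 groups DESeq2 called 1 (Ulk1) and the others 0. Counts over all genes moved more. DESeq2 called 363, 13 and 507 genes in the diabetes, dapagliflozin and combined comparisons and 953 in the joint test. Without a filter 275 were called for the combined comparison. With only the 2 groups compared the counts were 114 for diabetes and 626 for the combined comparison. Leaving out 1 mouse gave 84 to 230, 0 to 272 and 14 to 662 genes and 30 to 1522 in the joint test. The highest counts came without db/db replicate 3, whose levels correlated more closely with each db/db-dapa mouse than with the other db/db mice. The lowest came without db/m replicate 1 for diabetes and the joint test and without db/db-dapa replicate 2 for the combined comparison. The other counts that moved over 1.5 times were 126 and 112 for diabetes (without db/m replicate 3 and db/db replicate 2) and 1 for dapagliflozin (without db/db-dapa replicate 2). They were 37, 72 and 54 for the combined comparison without db/m replicates 1, 2 and 3, and 254 and 41 without db/db-dapa replicates 1 and 3. In the joint test they were 60 and 51 without db/m replicates 2 and 3, 68 and 95 without db/db-dapa replicates 2 and 3, and 83 with db/db replicate 2 left out. The cause was not tested.

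The median of the 10 genes was -0.0779 for diabetes with library totals and -0.0751 for dapagliflozin with upper quartile scaling. Leaving out 1 mouse, it ranged from -0.0887 to 0.0422 for dapagliflozin and from -0.216 to -0.121 for the combined comparison. Of the 630 refits of single fold changes, 609 kept their sign and 21 turned sign. None changed its side of the call threshold, but with no log2 fold change further from 0 than -0.84 none could. Ulk1 in DESeq2, at an adjusted p of 0.0443 in the diabetes comparison, is thus among the 609. With library totals Becn1 and Atg7 were at 0.0339 and 0.0347 for diabetes, and Map1lc3a at -0.0052 for dapagliflozin. With upper quartile scaling Map1lc3a was at -0.0182 there, and Atg5 at -0.0018 for the combined comparison. For dapagliflozin Map1lc3b was at 9.64e-05 without a filter and 0.0018 with the length correction, and Becn1 at 0.0033 in limma. With the length correction Atg12 was at -0.0180 for the combined comparison. Leaving out 1 mouse turned Becn1 (-0.22 to 0.0053) and Atg7 (-0.16 to 0.0351) for diabetes, and Atg5 (-0.0404 to 0.12) for the combined comparison. For dapagliflozin it turned Map1lc3a (-0.11 to 0.29), Map1lc3b (-0.0382 to 0.0669), Gabarap (-0.36 to 0.0012), Becn1 (-0.0823 to 0.14) and Atg7 (-0.27 to 0.0384).

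The replicate numbers were not taken to pair the mice. Deviations from the group mean correlated at -0.32 to 0.56 for mice of the same number, with 3 of 9 pairs over 0.1. For mice of different numbers in different groups they correlated at -0.61 to 0.36. Between db/db and db/db-dapa mice of the same number, r was 0.40, -0.16 and 0.56 for numbers 1, 2 and 3. In all, 4 of 9 mice were closest to a mouse of their own number. Whether mice of the same number share a batch or a pairing cannot be told from this check. With the replicate number as a block, 185, 0 and 167 genes were called in the 3 comparisons, against 194, 0 and 164 without it, 158 in the joint test against 203, and 0 of the 10 genes throughout. Depth limits the smaller libraries, where Atg5 and Atg7 rest on 79 and 82 counts.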
